A study of Mus musculus with 6 samples.

Results

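The metabotropic glutamate receptor genes Grm2, Grm3, Grm4, Grm5, Grm7 and Grm8 were examined in hippocampal RNA of wild type and daDREAM transgenic mice. Every probe set that the platform annotation gives to exactly 1 of these 6 symbols was taken, which yielded 9 of the 45037 probe sets tested: 3 for Grm7, 2 for Grm5 and 1 for each of the other 4 genes. A further probe set, 1431344_at, carries the symbols Gm28111 and Grm2 together and was therefore no member. The 6 samples, with 1 array each, came from adult male mice on a C57B6xCBA background, 3 from wild type littermates and 3 from mice homozygous for the transgene of line L26. Whether a sample holds 1 animal or several is not stated. L26 is a single transgenic line that carries daDREAM, a dominant active form of the calcium-regulated repressor DREAM. The promoter that drives the transgene is not given in the sources used here, and no treatment or batch is named. The comparison asks which transcripts differ in the hippocampus of mice that carry this active repressor.

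Metabotropic glutamate receptors are G protein-coupled receptors that tune synapses more slowly than the glutamate-gated channels. Group I, here represented by Grm5, sits mostly on dendrites and acts through Gq, phospholipase C and release of calcium from internal stores. Group II, Grm2 and Grm3, and group III, Grm4, Grm7 and Grm8, couple to Gi and Go, lower cyclic AMP and mostly restrain transmitter release from axon terminals. In the hippocampus, Grm2 is known from the mossy fibre terminals of dentate granule cells, Grm7 from the active zones of many terminals and Grm8 from the perforant path, while Grm3 is also made by astrocytes.

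DREAM binds DNA at a downstream regulatory element whose core is GTCA, so the sequence around the start sites of the members is given for the 2 genes whose levels lay furthest below wild type. RefSeq windows on GRCm38.p6, from 250 bases before to 50 after a start site, were held for 4 of the 6 genes, namely Grm2, Grm3, Grm7 and Grm8, with 7 windows in all. The Grm2 window is chr9:106656060-106656359 on the minus strand, and the Grm8 window is the most upstream of its 3, chr6:28135097-28135396, also on the minus strand. Capitals mark every GTCA on either strand (TGAC when read on the printed strand).
Grm2: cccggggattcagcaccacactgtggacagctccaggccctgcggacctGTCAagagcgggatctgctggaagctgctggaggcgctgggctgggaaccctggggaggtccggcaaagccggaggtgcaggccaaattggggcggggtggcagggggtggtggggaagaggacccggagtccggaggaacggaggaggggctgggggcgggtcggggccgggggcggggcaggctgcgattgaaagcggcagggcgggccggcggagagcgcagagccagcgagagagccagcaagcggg
Grm8: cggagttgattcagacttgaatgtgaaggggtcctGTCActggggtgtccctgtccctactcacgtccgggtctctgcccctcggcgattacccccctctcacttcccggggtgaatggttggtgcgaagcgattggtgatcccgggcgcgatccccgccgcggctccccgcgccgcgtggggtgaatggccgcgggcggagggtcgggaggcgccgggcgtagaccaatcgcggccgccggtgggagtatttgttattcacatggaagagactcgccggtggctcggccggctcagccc
Each of these windows held 1 match, which lay in the part before the start site and not downstream of it. The Grm3 window held 2, 1 before and 1 after the start site. The other 2 Grm8 windows held 1 each, before the start site in the middle window and after it in the most downstream one. Both Grm7 windows held 0. A match to so short a core was common, since 85.2% of 32851 promoter windows of the same length held at least 1, with a median of 2. The full cyclic AMP response element TGACGTCA, which contains this core on both strands, was found in 0 of the 7 member windows and in 1.79% of all windows. These matches describe letters in a window, and no binding was measured.

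No receptor passed the threshold, and 8 of the 9 probe sets had a lower mean in L26. The furthest from wild type were Grm8 and Grm2, at levels 1.25-fold and 1.17-fold lower, and these 2 alone had unadjusted p-values under 0.05. With limma and Benjamini-Hochberg adjustment over all probe sets, 0 of 9 members passed an adjusted p of 0.05, against 3.92% of all probe sets. With 1 probe set per gene, 0 of 6 passed, against 5.19% of 18193 genes. An unadjusted p under 0.05 was found for 2 of 9, where 18.1% of all probe sets had one. All 3 L26 values lay below all 3 wild type values for 4 of 9 members, those of Grm2, Grm3, Grm7 (1443119_at) and Grm8, against 9.32% of all probe sets. A lower L26 mean was seen in 8 of 9 members, against 43.7% of all probe sets, and the count was also 8 when arrays were centred on their medians or quantile-normalized again. It was 7 of 9 with array weights and without wild type replicate 1, wild type replicate 3, L26 replicate 1 or L26 replicate 3. The median difference was -0.11 on the log2 scale over the members and 0.013 over all probe sets. The members share their 6 arrays and are not replicates of each other. In bulk tissue, fewer cells of a type and less RNA per cell cannot be told apart.

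**Figure D1:**
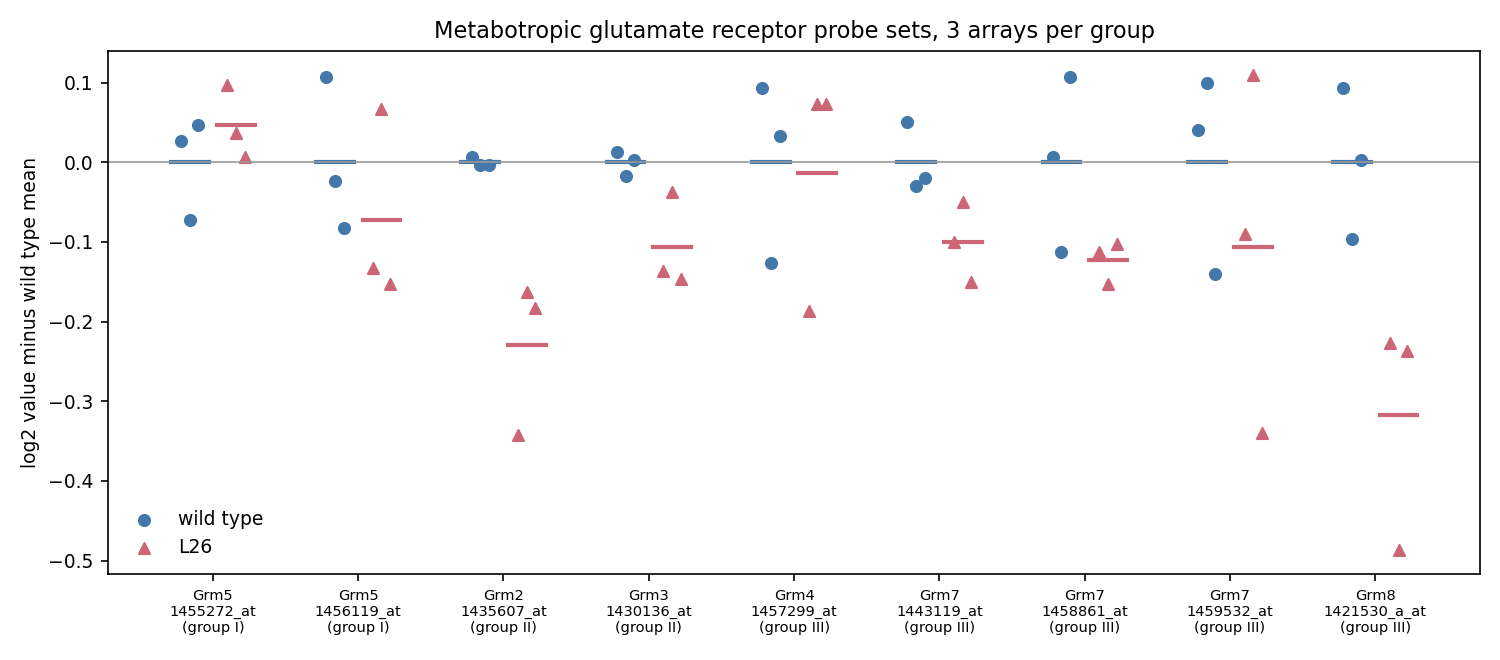
Log2 value of each receptor probe set on each array, less the wild type mean of that probe set, with circles for the 3 wild type and triangles for the 3 L26 arrays and a bar at each group mean. For Grm2, Grm3, Grm8 and the Grm7 probe set 1443119_at every triangle lies below every circle, while the groups overlap for the other 5 probe sets.

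Among the group II receptors, Grm2 (1435607_at), a presynaptic autoreceptor gene, was measured at log2 values of 10.03, 10.02 and 10.02 in wild type and 9.68, 9.86 and 9.84 in L26. The wild type arrays were nearly identical and all 3 L26 arrays lay below them, with L26 replicate 1 the lowest. The means were 10.02 ± 0.006 and 9.79 ± 0.099 (SD, n = 3), a difference of -0.23 (SE 0.063, 95% confidence interval -0.37 to -0.087). The adjusted p from limma was 0.0853 over probe sets and 0.0659 over genes, short of the threshold. The Grm2 call depended on the processing: at gene level its adjusted p was 0.0381 with arrays centred on their medians, 0.0292 with an intensity trend and a robust prior, and 0.0474 without the dimmest 40% of probe sets. Over all 14 alternatives it ran from 0.0292 to 0.147, and the difference from -0.26 to -0.17.

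Grm3 (1430136_at), whose receptor responds to the peptide transmitter NAAG as well as to glutamate, had log2 values of 11.16, 11.13 and 11.15 in wild type and 11.01, 11.11 and 11.00 in L26. The groups did not overlap, but L26 replicate 2 lay only just below the lowest wild type array. The difference was -0.11 (SE 0.056, 95% confidence interval -0.23 to 0.020), with an adjusted p of 0.364 in limma. On the same arrays 1 of 12 astrocyte markers fell and the other 11 missed the threshold, and the mean of the list ran between 11.26 and 11.34 on the wild type and between 11.33 and 11.36 on the L26 arrays. Their part in the Grm3 values was not tested.

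Among the group III receptors, Grm8 (1421530_a_at), a presynaptic receptor gene, had the largest difference of the 9 probe sets. Its log2 values were 7.40, 7.21 and 7.31 in wild type and 7.08, 6.82 and 7.07 in L26. Every L26 array lay below every wild type array, with L26 replicate 2 the lowest. The means were 7.31 ± 0.095 and 6.99 ± 0.147 (SD, n = 3), a difference of -0.32 (SE 0.084, 95% confidence interval -0.51 to -0.13). The adjusted p from limma was 0.0763 over probe sets and 0.0633 over genes. At gene level Grm8 came to 0.0456 with centred arrays, 0.0489 after a repeated quantile normalization and 0.0487 without the dimmest 40% of probe sets. Over its 14 alternatives the adjusted p ran from 0.0419 to 0.16 and the difference from -0.37 to -0.23. This probe set lay near the middle of the array, with a mean above 47.6% of all probe sets.

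**Figure D2:**
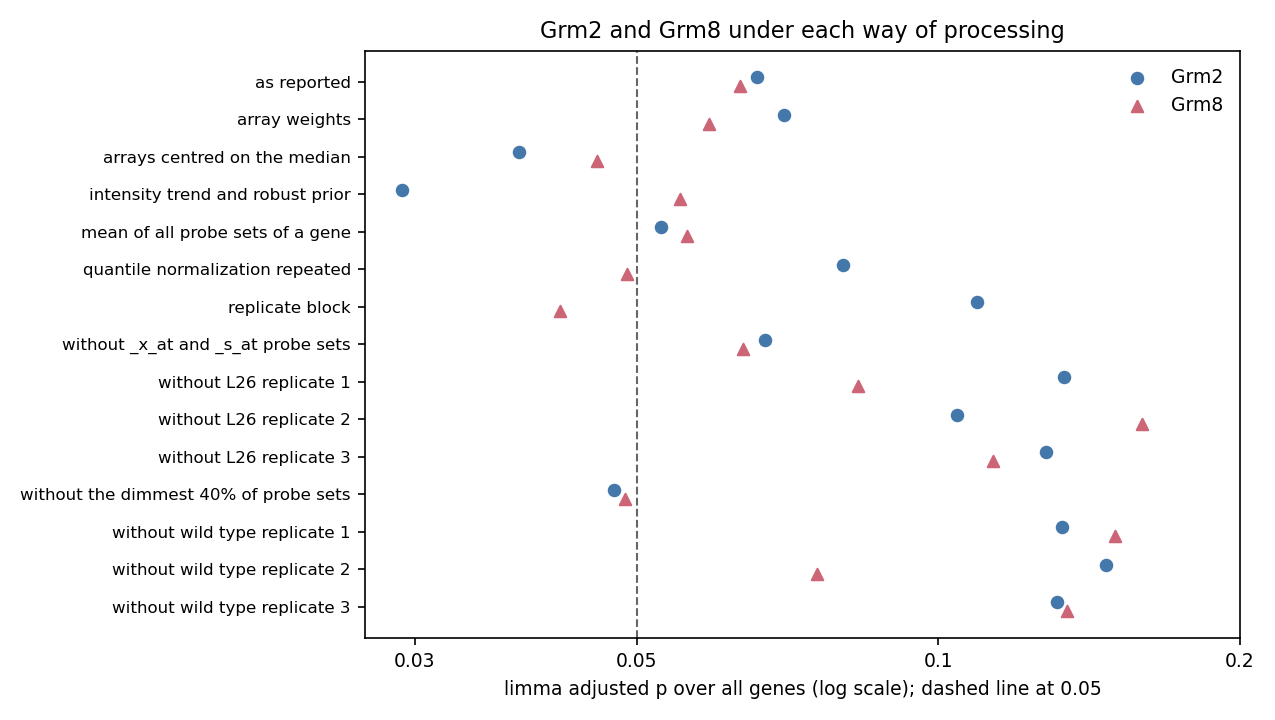
Adjusted p from limma at gene level (horizontal, log scale) for Grm2 (circles) and Grm8 (triangles) as reported and under each of 14 alternatives (vertical), with the threshold of 0.05 dashed. Points to the left of the line pass, which Grm2 did under 3 of 14 alternatives and Grm8 under 4 of 14.

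Grm7, which encodes a low-affinity receptor of the presynaptic active zone, was measured by 3 probe sets, all with a lower mean in L26. The brightest, 1443119_at, had 10.50, 10.42 and 10.43 in wild type and 10.35, 10.40 and 10.30 in L26 on the log2 scale. Here the groups did not overlap, though their closest arrays stood at 10.42 and 10.40, and the difference was -0.10 (SE 0.057, 95% confidence interval -0.23 to 0.028, limma adjusted p = 0.401). Probe set 1458861_at had 7.66, 7.54 and 7.76 in wild type and 7.54, 7.50 and 7.55 in L26, with a difference of -0.12 (SE 0.067, limma adjusted p = 0.377). The groups overlapped there only in the range from 7.54 to 7.55. The dimmest, 1459532_at, had 5.66, 5.72 and 5.48 in wild type and 5.53, 5.73 and 5.28 in L26. It lay low on the array, with a mean above only 17.1% of all probe sets, its groups overlapped almost fully, and its difference of -0.11 (SE 0.110) came with a limma adjusted p of 0.676 and turned to 0.01 without L26 replicate 3. The brightest and the middle probe set, which lay furthest apart, differed in their response by 0.023 (two-sided exact permutation p = 0.8, where 0.1 is the smallest the design allows).

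Grm4 (1457299_at), the remaining group III gene, had log2 values of 7.81, 7.59 and 7.75 in wild type and 7.53, 7.79 and 7.79 in L26. L26 replicate 1 was the lowest of the 6 arrays and the other 2 lay among the upper wild type values. The difference of -0.013 (SE 0.088, limma adjusted p = 0.958) had a 95% confidence interval from -0.21 to 0.18, so differences of that size in either direction were not resolved. Its sign turned under array weights and when wild type replicate 1, wild type replicate 3 or L26 replicate 1 was left out.

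The group I receptor gene Grm5, whose product is held at postsynaptic sites by Homer scaffolds, had opposite signs on its 2 probe sets. The brighter, 1455272_at, had log2 values of 12.39, 12.29 and 12.41 in wild type and 12.46, 12.40 and 12.37 in L26. The groups overlapped, and the difference was 0.047 (SE 0.059, 95% confidence interval -0.087 to 0.18, limma adjusted p = 0.745). The other, 1456119_at, had 10.83, 10.70 and 10.64 in wild type and 10.59, 10.79 and 10.57 in L26, with a difference of -0.073 (SE 0.078, 95% confidence interval -0.25 to 0.10, limma adjusted p = 0.688). There, 2 L26 arrays lay below all wild type arrays and L26 replicate 2 near the top. Within arrays the probe sets differed in their response by 0.12 (two-sided exact permutation p = 0.2). Which parts of the transcript the probe sets cover was not examined here.

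**Figure D3:**
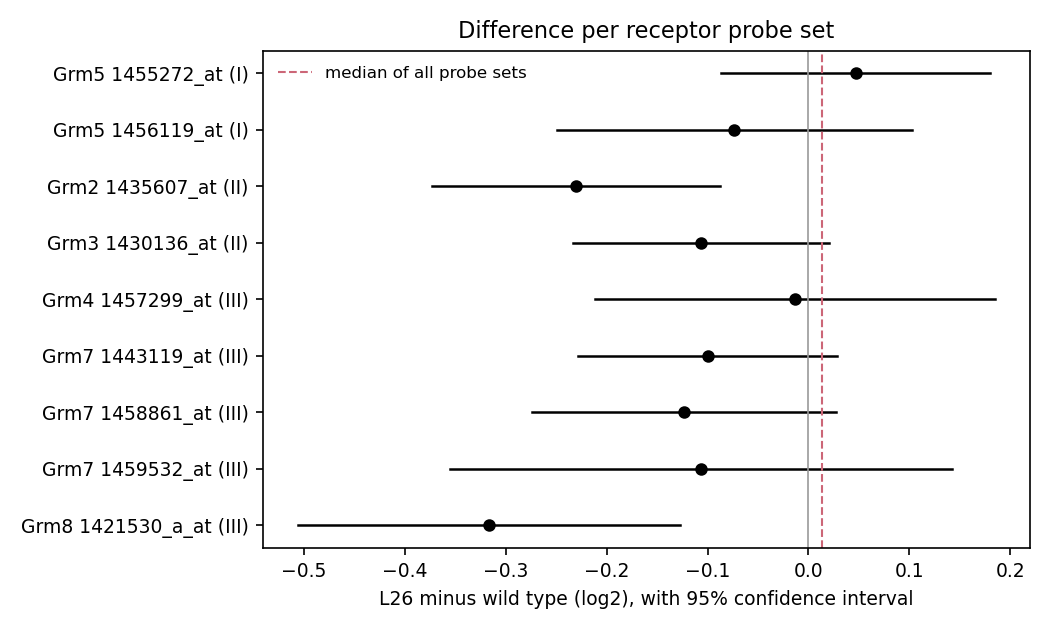
Difference L26 minus wild type on the log2 scale (horizontal) for each receptor probe set (vertical, with its receptor group in parentheses), with 95% confidence intervals from the limma fit, and a dashed line at the median of all probe sets, 0.013. The intervals of Grm2 and Grm8 lie below 0, and those of the other 7 probe sets include it.

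By receptor group, then, differences ran from -0.073 to 0.047 over the 2 group I probe sets, from -0.23 to -0.11 over the 2 of group II and from -0.32 to -0.013 over the 5 of group III. Whether the groups differ from each other was not tested. The probe set shared by Gm28111 and Grm2, 1431344_at, had 6, 6.01 and 5.91 in wild type and 5.80, 5.99 and 5.86 in L26, so the groups overlapped (-0.09, SE 0.066, limma adjusted p = 0.535).

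Genes that carry, scaffold or supply the receptors' signal were taken from 7 lists with 102 genes, of which 93 had a probe set of their symbol alone. At gene level 5 of 93 passed (5.38%), 1 higher and 4 lower in L26, a share near the 5.19% of all genes. A lower mean was seen for 47 of 93, and the median difference was -0.0033, against 0.01 over all genes. The lists were written with results of these data known, and the genes named are those past the threshold or, in a list without any, the one with the smallest p.

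In the Gi/o and cyclic AMP arm, through which groups II and III act, 2 of 25 genes fell, 0 rose and 23 did not pass. Adcy8, a calcium-stimulated adenylyl cyclase gene, had log2 values of 8.51, 8.54 and 8.63 in wild type and 7.94, 7.90 and 7.91 in L26. The groups stood well apart, and it fell by 0.64 (SE 0.053, limma adjusted p = 0.00037). Gnb1, a G protein beta subunit gene, had 12, 11.86 and 11.74 in wild type and 10, 9.99 and 9.61 in L26 on its brightest probe set, a fall by 2.00 (SE 0.11, limma adjusted p = 4.89e-05). Its 2 other probe sets had -1.69 and 0.0033, so the probe sets of Gnb1 disagree.

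In the Gq and phospholipase C arm, which serves group I, 0 of 14 genes passed. The smallest p belonged to Trpc4, a cation channel gene, with log2 values of 9.41, 9.36 and 9.30 in wild type and 9.69, 9.62 and 9.48 in L26 (0.24, SE 0.066, limma adjusted p = 0.075). All 3 L26 values lay above the wild type values, and its 2 other probe sets had differences of 0.087 and 0.14. Among scaffolds and receptor partners 1 of 15 rose, 0 fell and 14 did not pass. Homer3, one of the Homer scaffolds that bind group I receptors, had 8.77, 8.77 and 8.92 in wild type and 9.13, 9.07 and 9.28 in L26, and rose by 0.34 (SE 0.071, limma adjusted p = 0.0297). The Homer3 call was lost without any 1 array except wild type replicate 3, with adjusted p-values from 0.0505 (without L26 replicate 2) to 0.1 (without L26 replicate 3).

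**Figure D4:**
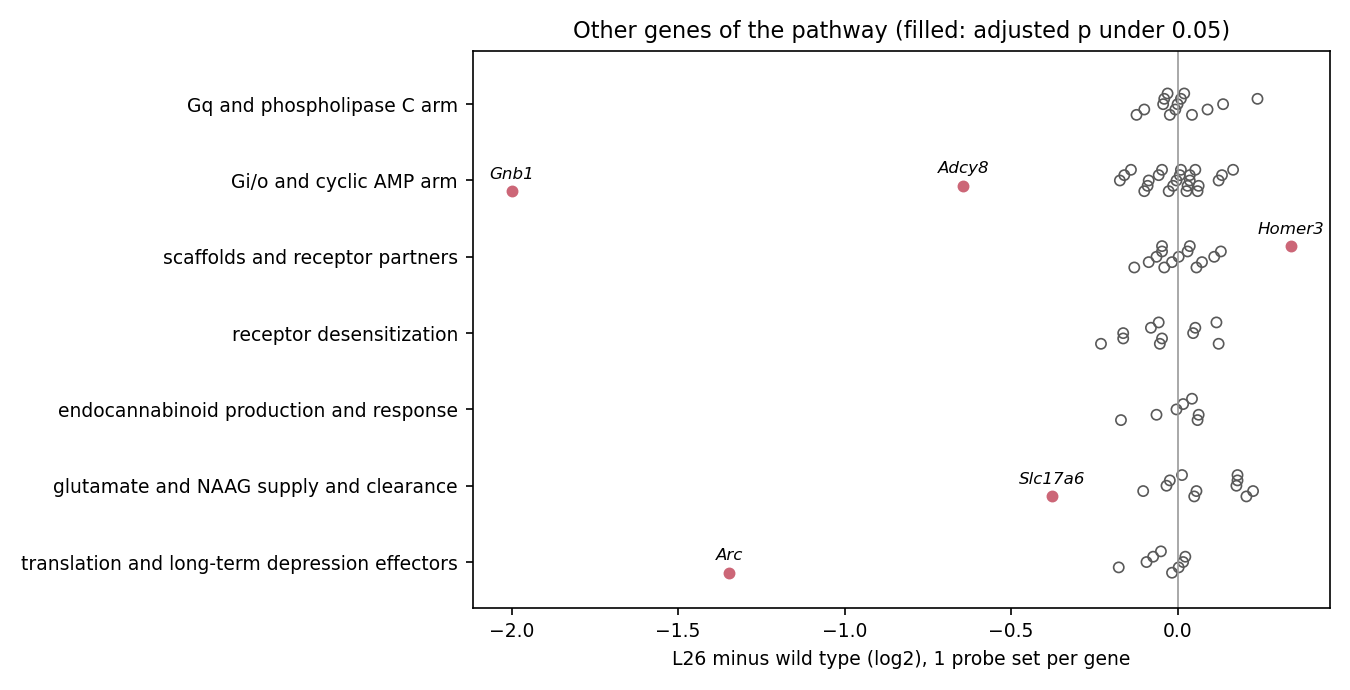
Difference L26 minus wild type on the log2 scale (horizontal) for 93 genes in 7 lists by role (vertical), with 1 point per gene and vertical offsets only for legibility. The 5 filled points, Gnb1, Adcy8, Homer3, Slc17a6 and Arc, passed an adjusted p of 0.05, and most open points lie close to 0.

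Of 12 genes of glutamate and NAAG supply and clearance, 1 fell, 0 rose and 11 did not pass. Slc17a6, which encodes a vesicular glutamate transporter that loads the ligand into vesicles, had log2 values of 9.85, 9.80 and 9.92 in wild type and 9.31, 9.52 and 9.61 in L26. It fell by 0.38 (SE 0.079, limma adjusted p = 0.0303), and by 0.51 on its other probe set. The Slc17a6 call was lost without any 1 array except L26 replicate 3, with adjusted p-values from 0.0538 (without L26 replicate 1) to 0.0912 (without wild type replicate 3). Slc17a6 also stands in the list of thalamic markers.

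Among translation and long-term depression effectors 1 of 9 fell, 0 rose and 8 did not pass. Arc, an activity-induced gene that takes part in the removal of AMPA receptors after group I activation, had 9.99, 10.60 and 10.64 in wild type and 9.28, 9.07 and 8.84 in L26, and fell by 1.35 (SE 0.17, limma adjusted p = 0.00345). Receptor desensitization (0 of 11) and the endocannabinoid genes (0 of 7) held no gene past the threshold. The smallest p in the first belonged to Rgs7, a regulator of Gi/o signalling, with 11.63, 11.57 and 11.58 in wild type and 11.43, 11.44 and 11.42 in L26 (-0.16, SE 0.049, limma adjusted p = 0.0954). That in the second belonged to Daglb, a diacylglycerol lipase gene, with 7.96, 8.13 and 8.01 in wild type and 7.84, 7.86 and 7.89 in L26 (-0.17, SE 0.059, limma adjusted p = 0.143). In both the L26 values lay below all wild type values.

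Marker lists moved on the same arrays, and their part in the receptor values was not tested. Mean levels of the cortical and subicular markers were 9.98 to 10.07 on the wild type arrays and 9.78 to 9.81 on the L26 arrays (-0.21, SE 0.030), with 4 of 11 genes lower and 0 higher. Vascular markers had wild type means of 8.53 to 8.56 and L26 means of 8.93 to 9.04 (0.45, SE 0.034; 7 of 10 higher, 0 lower), and oligodendrocyte markers had 11.30 to 11.41 against 11.60 to 11.82 (0.36, SE 0.072; 9 of 11 higher, 0 lower). The dentate granule cell markers, of the cells whose terminals carry Grm2, had 9.09 to 9.13 against 9.16 to 9.22 (0.087, SE 0.021; 3 of 10 higher, 1 lower). The CA1 markers differed by 0.23 (SE 0.020; 3 of 7 higher, 0 lower), the CA3 markers by 0.18 (SE 0.017; 3 of 7 higher, 1 lower), the interneuron markers by -0.076 (SE 0.014; 0 of 10 higher, 2 lower) and the oligodendrocyte precursor markers by 0.15 (SE 0.059; 1 of 5 higher, 0 lower). Each of these 8 lists had a two-sided exact permutation p of 0.1, the smallest that 3 arrays against 3 allow (0.163 adjusted over 13 lists). General neuronal markers differed by -0.042 (SE 0.022; 0 of 10 passed), astrocyte markers by 0.036 (SE 0.025), microglia markers by 0.042 (SE 0.046; 3 of 9 higher, 1 lower), thalamic markers by -0.0075 (SE 0.063; 2 of 8 higher, 3 lower) and choroid plexus markers by -0.027 (SE 0.36; 0 of 7 higher, 1 lower). For these 5 lists the permutation p lay between 0.3 and 0.9. The choroid plexus mean varied widely, between 9.01 and 9.77 over wild type and between 8.96 and 9.89 over L26 arrays.

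**Figure D5:**
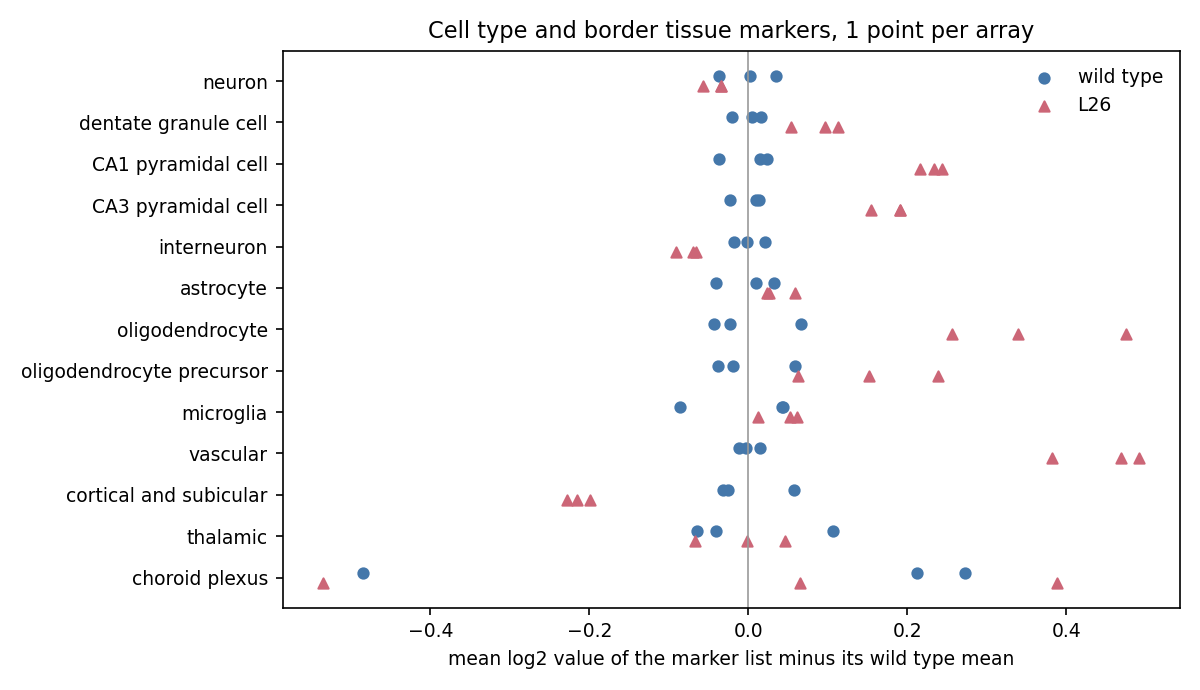
Mean log2 value of each of 13 marker lists on each array, less its wild type mean (horizontal), with circles for wild type and triangles for L26. The L26 arrays lie above wild type for the vascular, oligodendrocyte, oligodendrocyte precursor, CA1, CA3 and dentate granule cell lists. They lie below it for the cortical and subicular and the interneuron lists, and the choroid plexus list is spread widely in both groups.

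The labelled tissue was checked against its markers. The 10 neuronal and 10 dentate granule cell markers and 7 of 7 CA1 markers all had means above the median of the arrays, as had 5 of 7 CA3 markers. The same held for 11 of 11 cortical and subicular, 6 of 8 thalamic and 6 of 7 choroid plexus markers, so this measure does not single out the hippocampus. Array medians lay between 7.27 and 7.32. Correlations over probe sets were 0.997 to 0.998 within groups and 0.994 to 0.996 between them. Kcnip3, the endogenous gene for DREAM, had log2 means of 10.32 and 10.15 on 1418544_at (limma adjusted p = 0.208) and of 9.52 and 9.20 on 1449129_a_at (limma adjusted p = 0.0393) in wild type and L26. Whether either probe set sees the transgene is not known here, so Kcnip3 does not check the labels.

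The genes whose values over the 6 arrays followed each receptor most closely, among 9096 others in the brighter part of the array, are a description only. For Grm2 these were Smc5 (Pearson r = 0.997) and Mex3b (0.992), and for Grm8 they were Grb10 (0.999) and Med16 (0.991). Of these, Smc5 passed the threshold, at -0.30 (limma adjusted p = 0.0493), and Grb10 had -0.25 (limma adjusted p = 0.0761). Grm3 was followed by Npat (r = 0.990) and Sestd1 (0.986), Grm7 by Ank1 (0.993) and Spag9 (0.990), Grm4 by Mbtps1 (0.980) and Cacna1d (0.975), and Grm5 by Pfkfb3 (0.990) and Cttn (0.988). Each r rests on 6 points in 2 groups and is the highest among many genes, so it carries no test. For Grm2, Grm3, Grm7 and Grm8 the best matches also had lower L26 means. They were chosen for following receptors with lower L26 means, so this is no separate result.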

How the data were processed

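Expression was deposited as log2 numbers by the authors, with 1 value for each probe set of each Affymetrix mouse genome array. Per the submitters' processing notes, RMA and the affy package were used. Neither version is given in the sources used here. RMA is known to compress differences of dim transcripts, and such values carry no detection calls. No depth exists for arrays, and their number limits the precision. All per-sample columns were used.

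Of 45101 probe sets, 64 array controls were left out and 45037 tested, with no filter on level. The annotation gave 34945 of these 1 symbol, 932 several and 9160 none, and symbols were checked through Entrez identifiers against RefSeq (34741 found). At gene level each of 18193 genes was represented by its brightest probe set, judged on the mean of the 6 arrays without regard to group. L26 was compared with wild type by limma 3.58.1 in R 4.3.3 (lmFit, eBayes, two-sided, Benjamini-Hochberg over all probe sets or genes, threshold 0.05), and the code was tested on simulated data. SE and confidence intervals come from that fit. SE of marker means come from the spread between arrays. The design text calls the samples of a group independent biological replicates.

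Every member probe set is named. A pathway list names up to 4 genes past the threshold or else the one with the smallest p, and likeness names 2 genes per receptor with a mean at or above the median of genes. The members, the 7 pathway and the 13 marker lists were chosen with earlier results of these data known. Of 122 marker genes 3 also stand in a pathway list. Alternatives were a replicate block, each array left out, a repeated quantile normalization, centring on medians, a robust prior with an intensity trend, leaving out the dimmest 40% of probe sets, weights for the arrays and, per gene, the mean of all probe sets or removal of probe sets ending in _x_at or _s_at.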

Additional observations from a re-analysis of the deposited data

How the results depend on the processing

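As reported, 0 member genes and 5.19% of all genes passed the threshold. With arrays centred on their medians 2 passed (Grm2 and Grm8), beside 5.89% of all genes. The same 2 passed without the dimmest 40% of probe sets, beside 8.57%. The count was 1 with an intensity trend and a robust prior (Grm2, beside 7.46% of all genes). It was also 1 after a repeated quantile normalization (Grm8, beside 5.44%) and with the replicate block (Grm8, beside 3.49%). Every such call was in the direction of a lower L26 level. The count of member probe sets was 1 with the trend and robust prior (Grm2) and 1 with the replicate block (Grm8). These settings called 5.14% and 2.95% of all probe sets, against 3.92% as reported. Under the other 10 alternatives the count was 0. Fewer probe sets were tested where the dimmest were removed. What caused the changes in these counts was not tested. No member was called when any 1 array was left out, at either level. Those fits called 2.23% to 3.85% of all genes and 1.8% to 3.18% of all probe sets. Replicate numbers were not taken as pairs, since the design text gives no pairing. Residuals of equally numbered arrays correlated at -0.038, -0.070 and 0.15, while those of other pairs ran from -0.15 to 0.19. These residuals are taken from means of 3 arrays, so they do not decide whether arrays were paired. The 5 pathway genes became 11 of 93 with the trend and robust prior (3 higher, 8 lower), where 7.46% of all genes passed, against 5.19% as reported. They became 3 to 4 when 1 array was left out, where 2.23% to 3.85% of all genes passed.

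Grm4 changed sign with array weights (0.020 at gene level, 0.016 at probe set level) and ranged from -0.077 to 0.073 with 1 array left out. Grm5 had -0.013 as the mean of its probe sets, and Grm7 1459532_at ran from -0.22 to 0.01 with 1 array left out. Grm2, Grm3 and Grm8 kept their direction under all 14 alternatives at gene level, as did Grm7. With 3 arrays a group, a difference as small as that of Grm3 or Grm5 could not be resolved.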
